A study of Oryza sativa with 20 samples.

Results

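The step from stage S3 to stage S4 in the rice lamina joint was examined through the small RNA libraries of that tissue at those stages, chosen by their sample titles: 2 libraries of lamina joint S4 and 2 of lamina joint S3, or 4 of the 20 libraries of the series. The lamina joint and the blade came from the first complete leaf of Oryza sativa seedlings grown in water under alternating light and dark, and both tissues were sampled at stages S1 to S5 with 2 libraries each. Tissue was cut on days 4, 5, 6, 7 and 9 after germination, but the labels do not tie a day to a stage, and they name no cultivar, treatment or mutation in any group. The other groups used were blade S4 and blade S3, the same step in the neighbouring tissue, and lamina joint S5 and S2, stages that flank the step. The remaining libraries served to estimate the spread and to show the course over the stages. The labels leave unsaid whether the 2 replicates of a group are separate sets of plants. The p-values therefore reflect only how far these particular libraries vary, and that variation may be technical.

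MicroRNAs are short RNAs that guide Argonaute proteins to matching transcripts, and in plants the match is usually near complete and leads to cleavage of the transcript or to less translation. The lamina joint is the hinge between the leaf sheath and the blade. Growth and wall thickening on its upper and lower sides set how far the blade leans away from the stem, and auxin and brassinosteroid are known regulators of that angle in rice. The count files number their entries as tags and do not pair them with miRNA names or sequences. Tags are therefore described by number, level and course, no role is given to any of them, and the tissue labels could not be checked against marker miRNAs. In whole pieces of tissue a smaller share of the cells that make a miRNA and less of that miRNA per cell cannot be told apart.

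The lamina joint libraries held 555968 and 332457 counts at S4, and 417594 and 691284 counts at S3. Totals over the whole series lay between 194799 and 1169330. Of 685 listed tags, 484 had a count in some library and 299 passed the filter on low counts and were tested. At S4 the replicates had a Spearman correlation of 0.942 across the tested tags, and at S3 one of 0.957. Between the stages the 4 pairings of an S4 with an S3 library gave correlations of 0.800 to 0.833. The median absolute log2 difference of a tag was 0.474 between the S4 replicates, 0.481 between the S3 replicates and 0.697 to 0.768 between libraries of different stages. The libraries of a stage thus lay closer to each other than to those of the other stage. No pair of the 4 libraries agreed within sampling noise, with chi-square per degree of freedom of at least 70.1, so each counted as 1 sample.

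Between S3 and S4 about as many tags rose as fell, and most of the changes were large. Of the 299 tested tags, 53 passed the threshold of an edgeR quasi-likelihood adjusted p of 0.05, which is 17.7% of all tested. At S4, 27 tags were higher (9.03%) and 26 were lower (8.7%). The 27 had a median fitted log2 change of 3.07 and the 26 one of -3.08, against 0.03 over all tested tags. The smallest changes called were 1.15 and -1.43, so that all 53 called tags changed by more than 2-fold. Of the tags that rose, 20 changed by more than 4-fold and 14 by more than 8-fold, and of those that fell 17 and 14 did so. Among the 246 tags that did not pass, 18 also had fitted changes of more than 4-fold.

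Every called tag was separated by library: both S4 libraries lay above both S3 libraries for the 27 tags that rose, and below them for the 26 that fell. Such a separation is common among all tags, at 30.1% of the tested tags above and 28.8% below, because only 2 libraries stand on each side. The number called rested on having both replicates. It was 36 and 32 without the first or the second S3 library and 31 and 27 without the first or the second S4 library. None of the 53 tags changed direction in any of those refits.

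**Figure D1:**
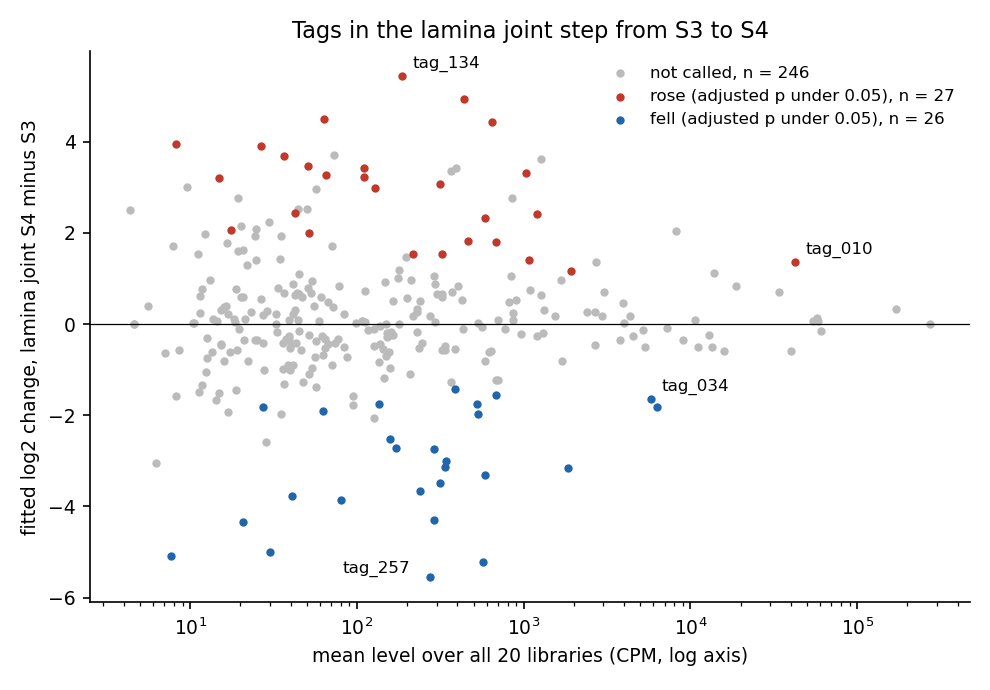
Each point is 1 of 299 tested tags, placed by its mean level over all 20 libraries (CPM, log axis) and its fitted log2 change in the lamina joint, S4 minus S3. The 27 tags that rose and the 26 that fell spread over a wide range of levels. Of the 10 most abundant tags, at the far right, all but tag_010 missed the threshold, with changes of -0.59 to 0.83.

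Tag_134 had the largest change among the tags that rose. It had 157 and 272 CPM (counts scaled to an effective library size of 1000000) in the S4 libraries, against 1.99 and 6.77 CPM in the S3 libraries. The S4 values came from 185 counts together and the S3 values from 6. The fitted change was 5.45 ± 0.91 (log2, SE; edgeR adjusted p = 0.00139), and the ratio of summed counts was 42.2 with an exact 95% counting interval of 19.0 to 116. It was near the limit of detection at S3 and above the median tag at S4. Tag_134 was low before the step as well, with 1.66 and 24.2 CPM at S1 and 6.91 and 6.16 CPM at S2, and stood at 1706 and 1285 CPM at S5. Its level at S5 was thus higher again than at S4.

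Tag_010, the seventh most abundant tag of the series, had the highest level among the tags that rose. It had 38473 and 22414 CPM in the S4 libraries, against 12004 and 11802 CPM in the S3 libraries, so the S4 replicates were farther apart than the S3 replicates but did not overlap with them. The fitted change was 1.35 ± 0.40 (log2, SE; edgeR adjusted p = 0.0305). The call was lost without the first S4 library (0.93, edgeR adjusted p = 0.260) or without either S3 library (1.38 and 1.45, edgeR adjusted p = 0.125 and 0.146), and the adjusted p ranged from 0.000952 to 0.260 over all 17 refits. Its lamina joint level was 7980 and 12647 CPM at S1, 4009 and 3810 CPM at S2 and 36965 and 47665 CPM at S5, so it had also been lower at S2 than at S3. Tag_010 was the bulk of what the rising tags contributed to the libraries. Together the 27 tags held 5.10% and 4.30% of the counts at S4, against 1.88% and 1.61% at S3. Summed over the 27 tags the level was 53024 and 38529 CPM at S4, of which the values of tag_010 above were the larger part.

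Among the tags that fell, tag_257 had the largest change. It had 5.61 and 8.08 CPM in the S4 libraries, against 299 and 355 CPM in the S3 libraries, from 6 and 412 counts. The fitted change was -5.56 ± 0.84 (log2, SE; edgeR adjusted p = 0.000639), and the ratio of summed counts was 0.0199 with an exact 95% counting interval of 0.00727 to 0.0438. Tag_257 stood at 754 and 781 CPM at S1 and at 356 and 252 CPM at S2, so its S2 and S3 libraries overlapped. After the step it was at 7.55 and 0 CPM at S5, where 3 counts in the deeper of these libraries would be 10.7 CPM. In ratio the largest drop of tag_257 thus lay between S3 and S4, after a smaller decrease from S1 to S2. What was left at S4 and S5 was within a few counts of none.

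Tag_034 had the highest level among the tags that fell. It had 3053 and 2331 CPM in the S4 libraries, against 6830 and 10072 CPM in the S3 libraries, with a fitted change of -1.65 ± 0.32 (log2, SE; edgeR adjusted p = 0.00274). Its means declined over several stages, and its S1 and S2 libraries overlapped. The means were 13370 ± 1461 CPM at S1, 12139 ± 369 CPM at S2, 8451 ± 2292 CPM at S3, 2692 ± 511 CPM at S4 and 1067 ± 3.99 CPM at S5 (SD, n = 2 each). In these TMM-scaled values the largest drop in ratio was from S3 to S4, but that order depended on the scaling. As a share of the library totals, tag_034 dropped more in ratio from S4 to S5. Its counts were 3430 and 7434 at S3, 1634 and 865 at S4, and 141 and 299 at S5. The totals at S5 were 198599 and 465886. The 26 tags that fell held 0.692% and 0.621% of the counts at S4, against 3.07% and 3.16% at S3.

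**Figure D2:**
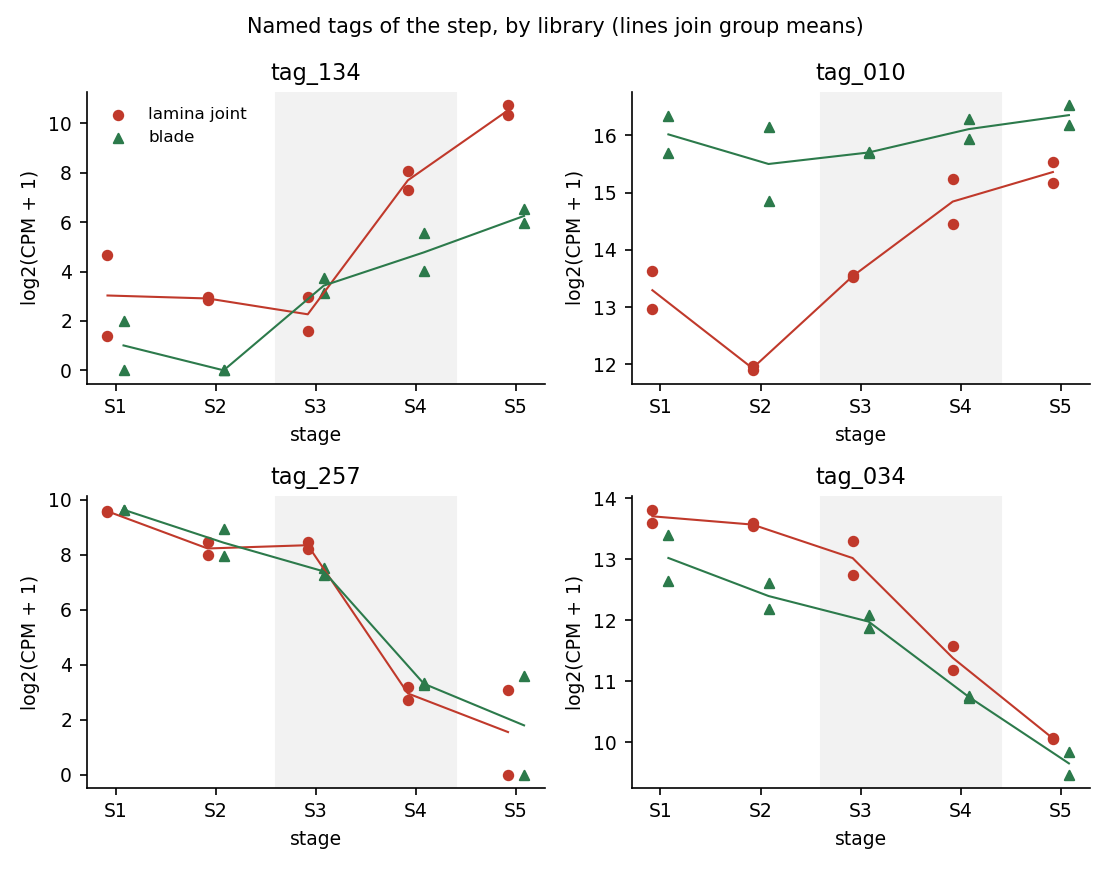
Each point is 1 library, as log2(CPM + 1), by stage, for the 2 tags named among those that rose (top) and the 2 named among those that fell (bottom). Lines join the means of the 2 libraries of a group, and the shading marks S3 and S4. In the lamina joint tag_134, tag_257 and tag_034 have their largest change within the shaded step, and tag_034 declines over several stages. For tag_034 this order holds for the TMM-scaled values plotted, but not for shares of the library totals.

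Of the 10 tags with the highest mean level over the series, 1 (tag_010) rose and 0 fell. Among all tested tags 17.7% were called, and 10 tags are too few to show a difference from that share. The other 9 did not pass the threshold, with fitted changes of -0.59 to 0.83 on the log2 scale. Tag_011, the most abundant tag of all, took 20.1% and 18.8% of the counts at S4, against 23.8% and 19.1% at S3. Its fitted change was -0.00097 ± 0.35 (log2, SE; edgeR adjusted p = 1), and a modest change in either direction was not detectable with this error.

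Calls were most frequent at middle levels. Of 100 tags with a mean of 100 to 1000 CPM over the series, 28 were called, which is 28% against the 17.7% of all tested tags. Of these, 12 rose and 16 fell. Of 48 tags of 1000 CPM and over, 8 were called (16.7%), 5 higher and 3 lower, with median changes of 1.40 and -1.81. Of 139 tags of 10 to 100 CPM, 15 were called (10.8%), 9 higher and 6 lower, with median changes of 3.27 and -3.81. The median SE of the fitted change was 0.66 in that class, 0.46 at 100 to 1000 CPM and 0.39 at 1000 CPM and over. A change thus had to be larger to pass among scarce tags. Of 12 tags under 10 CPM, 1 rose and 1 fell (16.7%), a share that rests on 2 tags.

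Few tags appeared or vanished altogether at this depth. Of the 685 listed tags, 312 had counts in all 4 libraries of the step and 268 in none of them. Only 4 tags had counts in both S4 libraries and in neither S3 library, with at most 5 counts at S4 together. A further 8 had counts in both S3 libraries and in neither S4 library, with at most 10 counts at S3 together. The tag with those 10 counts at S3 was tested and is 1 of the 26 that fell. At such low counts the others could not be told from tags that were merely missed. The 53 called tags are thus mostly tags present at both stages at different levels.

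Whether the change at this step held beyond its own libraries was examined in lamina joint S5 and S2, which share no library with it. The tags that had risen in the step were high at S5 and low at S2, and those that had fallen were low at S5 and high at S2. Of the 27 tags that rose, 26 (96.3%) were also higher at S5 than at S2, 0 were lower and 1 did not pass, where 28.1% of all tested tags were higher. They made up 31% of the 84 tags higher at S5. Of the 26 tags that fell, 22 (84.6%) were also lower at S5 than at S2, 0 were higher and 4 did not pass, where 16.1% of all tested tags were lower. They made up 45.8% of the 48 tags lower at S5. Both lists come from 1 fit, so a tag measured well can pass in both, although that does not fix its direction. The fitted S5 minus S2 changes had the sign of the step for all 53 tags, with a median of 4.36 for the 27 and -3.67 for the 26, against 0.10 over all tested tags.

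The scaling of the libraries bears on these background shares. With total counts as the scaling the median S5 minus S2 change of all tested tags was -1.07, and 44 tags were higher and 122 lower at S5 (upper quartile factors 65 and 85). The tags shared with the step were then 18 that rose and 28 that fell. In the step itself the median over all tags moved only between -0.08 and 0.13 over the scalings tried, and the tags that rose and fell numbered 23 and 29 with total counts and 31 and 25 with DESeq2 size factors.

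The level of the called tags in each library showed the same course. The median over the 27 tags that rose was 3.78 and 4.81 (log2 CPM) in the libraries of lamina joint S1, 3.99 and 4.12 at S2, 4.89 and 5.07 at S3, 7.94 and 8.11 at S4, and 8.68 and 9.05 at S5. The median over the 26 tags that fell was 8.77 and 8.48 at S1, 8.53 and 8.83 at S2, 8.91 and 8.75 at S3, 5.69 and 5.70 at S4, and 4.73 and 5.08 at S5. Over all tested tags it stayed between 5.99 and 6.36 in these 10 libraries. Before the step the median of the falling tags was thus about level from S1 to S3, and at S5 it lay below its S4 values. Their summed level was not: it was 44222 and 46222 CPM at S2, against 25546 and 29601 CPM at S3. Part of that sum was therefore lost before the step. For the rising tags the order of S5 and S4 depended on the scaling: as a share of the counts the 27 tags held 4.12% and 4.03% at S5, against 5.10% and 4.30% at S4. The 26 held 0.206% and 0.198% at S5, against 0.692% and 0.621% at S4. The S3 and S4 values chose these lists and are a description only. The S1, S2 and S5 libraries were not part of the difference tested, but they entered the filter and the estimate of spread. With only the libraries compared in the fit, 47 of the 53 calls were kept. By group means of TMM-scaled CPM, 15 of the 27 tags had their highest lamina joint level at S5 and 12 at S4. Of the 26, 20 had their lowest level at S5, 5 at S4 and 1 at S1.

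**Figure D3:**
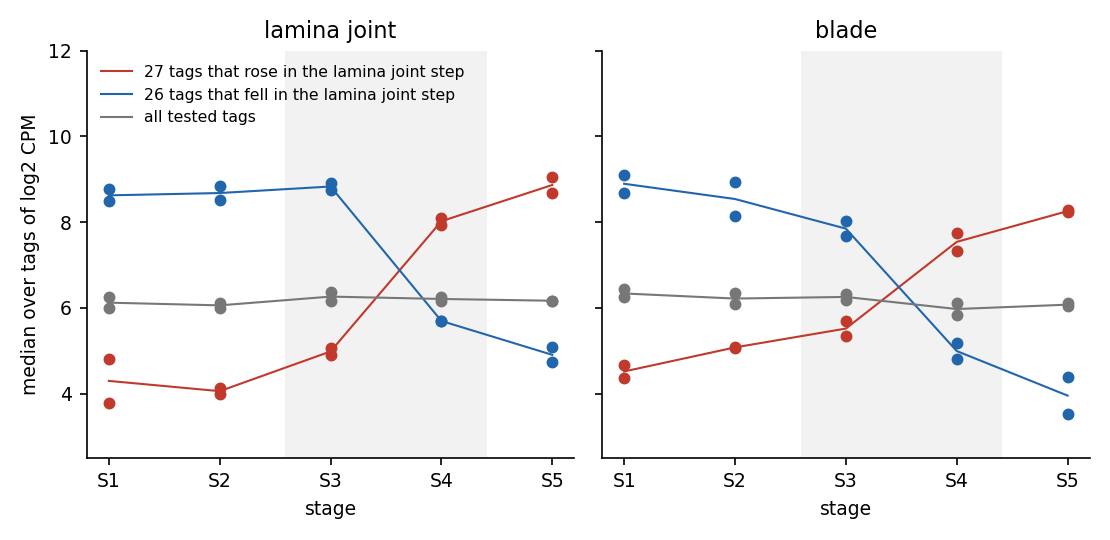
Each point is 1 library: the median log2 CPM, by stage, over the 27 tags that rose in the lamina joint step, the 26 that fell and all tested tags, in the lamina joint (left) and the blade (right). Lines join the means of the 2 libraries of a group and the shading marks S3 and S4; in the lamina joint the 2 lists cross between S3 and S4 (7.94 and 8.11 against 5.69 and 5.70 at S4) and stay crossed at S5.

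Not all of the change from S2 to S5 fell within this step. Tag_011 had 574878 and 672892 CPM at S5, against 105024 and 176678 CPM at S2, a change of 2.15 ± 0.37 (log2, SE; edgeR adjusted p = 0.000321) that has no counterpart between S3 and S4. Its size depended on the scaling and was 1.05 with total counts. Tag_056 was the most abundant tag that was lower at S5 than at S2 (-1.94 ± 0.53, log2, SE; edgeR adjusted p = 0.00809). In the step it had 11828 and 5911 CPM at S4, against 14794 and 10191 CPM at S3, values that overlapped. Tag_189 had the largest decrease from S2 to S5 (-7.91 ± 0.96, log2, SE; edgeR adjusted p = 1.98e-05) and fell in the step too (-4.29 ± 0.78, log2, SE; edgeR adjusted p = 0.00183). It had 13.1 and 2.69 CPM at S4, against 135 and 202 CPM at S3. Tag_044 had the largest increase from S2 to S5 among the called tags, but its S5 replicates were 90.6 and 4019 CPM. It had 2 counts at S4 and none at S3, and lost its S5 call without the second S5 library (edgeR adjusted p = 0.182, over a range of 1.31e-27 to 0.182 in 16 refits).

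The same step in the blade was compared to ask whether the change was shared by the neighbouring tissue. The blade has its own libraries at both stages. There 33 tags passed the threshold (11% of those tested), 9 higher at S4 (3.01%) and 24 lower (8.03%). Of the 26 tags that fell in the lamina joint, 19 (73.1%) also fell in the blade, and they were 79.2% of the 24 blade tags that fell. Of the 27 tags that rose in the lamina joint, 8 (29.6%) also rose in the blade and were 88.9% of the 9 blade tags that rose. No tag was called in opposite directions. The blade count of higher tags depended on the processing: DESeq2 size factors gave 17 higher and 23 lower in the blade and 13 shared tags that rose, and upper quartile factors gave 17 and 22. The shared counts also rested on single libraries. The 19 shared falls became 4, 9 and 12 without the second blade S4, the first blade S4 or the second blade S3 library, and 11 and 12 without the second lamina joint S4 or S3 library. The 8 shared rises became 3, 1 and 3 without the first blade S3, the second blade S3 or the second blade S4 library, and 4 without the first lamina joint S3 library.

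In the blade the fitted S4 minus S3 change had the sign of the lamina joint step for 24 of the 27 tags that rose and 25 of the 26 that fell. Over all tested tags 49.8% had a positive and 49.8% a negative change. The median blade change was 1.28 for the 27 tags and -2.79 for the 26, where the lamina joint medians that chose them were 3.07 and -3.08. Tags chosen for a large change in one tissue tend to have a smaller one elsewhere, so these medians do not show that the tissues differ. In the blade libraries the 26 tags stood at 4.80 and 5.18 (median log2 CPM) at S4, against 7.67 and 8.03 at S3, and the 27 tags at 7.74 and 7.34 at S4, against 5.33 and 5.70 at S3. The blade count of 33 was 8 and 19 without the second or the first blade S4 library, 17 without the second blade S3 library and 32 without the first.

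The tags named for the blade step were all tags of the lamina joint step. Tag_132 had the largest increase among the called blade tags, with 134 and 344 CPM at S4, against 23.0 and 29.5 CPM at S3 (3.17 ± 0.79, log2, SE, edgeR adjusted p = 0.0164). In the lamina joint it had 533 and 1369 CPM at S4, against 13.9 and 46.1 CPM at S3, and a fitted change of 4.94 ± 0.83 (log2, SE; edgeR adjusted p = 0.00128). Tag_130 had the highest level among the blade tags that rose, at 1219 and 1768 CPM at S4, against 380 and 328 CPM at S3. In the lamina joint it had 1471 and 970 CPM at S4, against 106 and 141 CPM at S3. The blade calls of tag_132 and tag_130 each failed in 3 of 4 refits that left out a blade library. The groups did not overlap for either tag in either tissue.

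The largest change among the blade tags that fell was -6.24 (log2), in a tag that did not meet the rule for naming. Of the called tags with at least 10 CPM and no overlap between the groups, tag_189 also had the largest blade decrease. It had 1.31 and 0 CPM at S4, against 32.7 and 23.3 CPM at S3. The ratio of its summed blade counts, 1 and 32, was 0.0296 (exact 95% counting interval 0.000728 to 0.177). Tag_050, the most abundant of the blade tags that fell, had 2375 and 1575 CPM at S4, against 3741 and 6506 CPM at S3 (-1.37 ± 0.35, log2, SE; edgeR adjusted p = 0.0168). Its adjusted p reached 0.314 over 16 refits and was lowest at 0.00564. In the lamina joint tag_050 had 1807 and 1700 CPM at S4, against 6332 and 6003 CPM at S3, a change of -1.81 ± 0.35 (log2, SE; edgeR adjusted p = 0.0028).

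**Figure D4:**
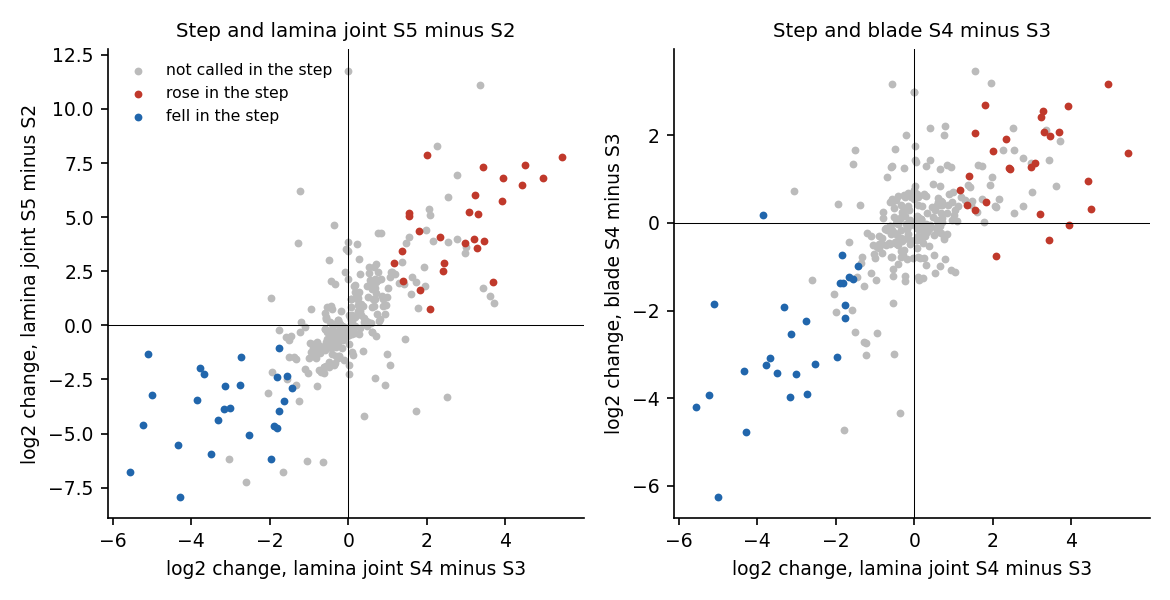
Each point is 1 of 299 tested tags: its fitted log2 change in the lamina joint, S4 minus S3, against that in lamina joint S5 minus S2 (left) and in blade S4 minus S3 (right), coloured by its call in the step. Neither pairing shares a library; all 53 called tags lie in the matching quadrants on the left, and 24 of the 27 red and 25 of the 26 blue points do so on the right.

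Taken across the 299 tags (not independent replicates of anything), changes in the step had a Pearson correlation of 0.743 with those of lamina joint S5 minus S2 and of 0.693 with those of the blade step. The Spearman correlations were 0.753 and 0.628. The tags of each pairing share abundance and the estimate of spread from 1 fit, but no library. In all, 8 tags rose and 16 fell in the step, in the blade step and from lamina joint S2 to S5. Of the 53 step tags, 2 were called in neither of the other comparisons, 1 in each direction. The same held for 159 of the 246 tags not called in the step.

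The difference between the tissues was tested directly, as the change in the lamina joint minus the change in the blade. It gave 1 tag of 299 (0.334%), tag_225, and that tag is not among the 53. The tests at an unadjusted p under 0.05 numbered 18 (6.02%), 10 of them among the 53 step tags, which were chosen for a large lamina joint change. For tag_134 the lamina joint change exceeded the blade change by 3.85 ± 1.23 (log2, SE; edgeR adjusted p = 0.325). It had 45.7 and 15.2 CPM in blade S4, against 7.68 and 12.4 CPM in blade S3. For tag_257 the difference was -1.36 ± 1.11 (log2, SE; edgeR adjusted p = 0.798), with 9.14 and 8.65 CPM in blade S4, against 184 and 152 CPM in blade S3. For tag_010 it was 0.94 ± 0.55 (edgeR adjusted p = 0.753), with 79305 and 62773 CPM in blade S4, against 53267 and 53090 CPM in blade S3. For tag_034 it was -0.41 ± 0.44 (edgeR adjusted p = 0.825). With errors of this size, tests that miss the threshold do not show that the tissues changed alike.

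Tag_225 fell in the blade, while its lamina joint change missed the threshold. It had 28.0 and 37.7 CPM in lamina joint S4, against 33.9 and 50.1 CPM in lamina joint S3, a fitted change of -0.37 ± 0.52 (log2, SE; edgeR adjusted p = 0.710). In the blade it had 11.7 and 4.33 CPM at S4, against 198 and 158 CPM at S3, a change of -4.34 ± 0.59 (log2, SE; edgeR adjusted p = 0.000445). The difference between the tissues was 3.97 ± 0.78 (log2, SE; edgeR adjusted p = 0.0465). Its size held between 3.44 and 4.94 over 20 refits, but it did not pass without any single one of the 8 libraries compared. Over those refits the adjusted p ran from 0.00061 to 0.577.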

How the data were processed

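Small RNA libraries were grouped by tissue, stage and replicate number from the sample titles. The authors deposited 1 file per library of whole-number counts per tag, without normalisation. The submitters' processing notes list CASAVA and, as genome build, IRGSP-1.0. The aligner, miRNA annotation and counter were not given in the sources used here. Tags of near-identical sequence may share reads. All 20 libraries entered a single fit of the edgeR 4.0.16 quasi-likelihood test (R 4.3.3) with 1 mean per group (10 residual degrees of freedom), TMM scaling and filterByExpr (minimum count 10, minimum total 15). At least 99.9% of each library's counts lay in the 299 tested tags. Tests were two-sided, with Benjamini-Hochberg adjustment over all tested tags. Standard errors come from the F statistics, and log2 CPM used a prior count of 2. Ratios of summed counts were scaled by effective library size; their exact 95% binomial intervals and detection limits (3 counts) cover counting error only.

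Per contrast and direction, the named tags are the one with the largest change and the one with the highest mean among called tags of at least 10 CPM without overlap between groups (for the difference between tissues overlap was ignored); at most 2 are named because tags carry no miRNA names. The comparisons and this rule were chosen with earlier results of these data known. The script was tested on simulated counts. Plots used Python 3.11.15 and matplotlib 3.10.9. Alternatives were other scalings and filters, DESeq2 1.42.0, limma-voom (limma 3.58.1), robust edgeR estimation, a replicate block, fewer libraries and leaving out each library compared.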

Additional observations from a re-analysis of the deposited data

Results flagged for a closer look

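Tag_225 stood out because its change from S3 to S4 differed between the lamina joint and the blade in a direct test. The difference, lamina joint minus blade, was 3.97 on the log2 scale, from 29 counts at S4 and 54 at S3 in the lamina joint, and 11 counts at S4 and 205 at S3 in the blade. In lamina joint S5 and S2 the same tag had 35 and 4 counts. What the difference comes from was not tested.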

How the results depend on the processing

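Outside the refits that left out a library, the lamina joint step gave 50 to 66 tags, and 47 to 52 of the 53 called tags kept their call and direction; without a filter 42 tags rose. Leaving out 1 library of the step gave 27 to 36 tags, 14 to 19 higher and 13 to 18 lower, where fewer samples were in the fit and the lone sample of a group was assumed to vary like the others. In the blade step 17 tags rose with DESeq2 size factors, upper quartile factors or no filter, 14 with limma-voom or without both lamina joint S1 libraries, and 22 with DESeq2 (50 in all); leaving out a library gave 8 to 32 tags, 1 to 11 higher and 5 to 21 lower. From lamina joint S2 to S5, 44 rose and 122 fell with total counts and 85 fell with upper quartile factors; leaving out a library gave 96 to 111 tags, 57 to 76 higher and 31 to 48 lower. Tags shared by the step and the blade step were 13 higher with DESeq2 size factors and 15 with DESeq2, and 1 to 9 higher and 4 to 16 lower without a library; those shared with S5 minus S2 were 14 to 26 higher and 12 to 23 lower without a library. The test between tissues gave 0 tags with DESeq2 size factors or the replicate block, 2 with TMM without the most abundant tag, 3 with DESeq2, 4 with only the libraries compared, 10 without a filter and 0 to 2 without a library. The causes were not tested. Tag_225 did not pass with DESeq2 size factors (edgeR adjusted p = 0.0772) or the replicate block (0.0837), and tag_010, tag_132, tag_130, tag_050, tag_189 (blade), tag_056 and tag_044 lost calls without single libraries, tag_050 also with upper quartile factors or only the libraries compared and tag_044 also with limma-voom or robust estimation. No named tag reversed.

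Replicate numbers shared by groups do not pair the libraries by the labels, and deviations of same-numbered libraries correlated at -0.219 between lamina joint S4 and S3 and 0.0735 between blade S4 and S3. With the replicate block the step gave 51 tags, and with the numbers of lamina joint S4 exchanged, a setting added after the data were seen, also 51. Tags of few counts and 2 libraries per group limit the precision of all these results.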
